A study of Mus musculus with 18 samples.

Results

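The genes of the bone morphogenetic protein (BMP) and transforming growth factor beta (TGF-beta) pathways were examined as places where nuclear factor I proteins sit during the formation of mouse medulloblastoma. Members were the autosomal protein-coding RefSeq genes named Bmp, Tgfb or Smad with a digit, or starting with Bmpr, Tgfbr, Acvr or Inhb, with Nog, Chrd, Grem1, Fst, Ski and Skil added and Bmp2k left out. The rule found 46 of 20665 genes. CUT&Tag, which uses an antibody to direct a transposase to the chromatin around a protein, was done for NFIA and NFIB in 3 groups of primary mouse cells purified on a Percoll gradient. These were granule neuron progenitors (GNPs) from the cerebellum at postnatal day 7, hyperplasia taken at postnatal day 28, and adult tumors. With 3 preparations per stage, and 1 NFIA and 1 NFIB library of 100000 cells from each, there were 18 libraries. The labels name neither the alleles or the driver of the mouse model nor the strain, and nothing ties preparations to separate animals, so the p-values reflect a spread among preparations that may be technical. Stage and age changed together in all comparisons and cannot be told apart. A cell line named in the design was not analysed here.

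In this pathway, dimeric ligands (BMPs, TGF-betas and activins) bring type I and type II receptor kinases together. The type I receptor phosphorylates receptor-regulated SMAD proteins, which join the common partner Smad4 and act on genes in the nucleus, while inhibitory SMADs, nuclear corepressors and secreted antagonists limit the signal. In the mouse cerebellum, BMP signalling is known to oppose the proliferation of GNPs that sonic hedgehog drives. NFIA and NFIB are DNA-binding proteins known for their part in granule neuron maturation, and their known site is a palindrome of the letters TTGGC and GCCAA.

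The deposited data were peak summits, 1 base each, called for each library separately and scored by the authors' peak caller on a −log10 scale. The 18 lists held 49948 to 385466 summits, and since list length is not binding, only the 30000 autosomal summits with the highest scores in a library (top summits) were given to the nearest gene span within 100 kb. A value below is the number of top summits at a gene in a preparation, NFIA and NFIB libraries added, unless another unit is named. It counts places, not the strength of binding or expression of the gene, and a rise can mean that a site moved up in rank. The score at rank 30000 ran from 3.46 in the first tumor NFIA library to 9.84 in the second GNP NFIB library. The cut is thus one of rank within a library and not of score. In bulk cells, fewer cells of a type and less binding per cell cannot be told apart. The second NFIA library of hyperplasia stood apart: 20.4% of its top summits shared the lowest score kept, against at most 8.04% in the other libraries. Chromosome 6 took 5.04% to 5.33% of top summits in GNP libraries, 5.30% to 5.51% in hyperplasia libraries and 6.83% to 7.44% in tumor libraries; the single member on chromosome 6 is Bmp10. The title dates of GNP and hyperplasia preparations are the same 2 dates, whereas the 3 tumor preparations have 3 other dates, so that date and stage cannot be told apart in comparisons with tumors.

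NFIA and NFIB summits were found at most of the pathway, as at most genes. Of the 46 members, 44 (95.7%) had a top summit in some library, against 77.1% of all genes, and Inhbc and Tgfbr3l, an inhibin subunit and a receptor-like gene, had none. The mean over the 9 preparations was at least 2 summits, the limit for testing, in 30 members (65.2%, against 41.6% of all genes). Because these shares and the count itself favour genes with long surroundings, levels were compared between genes only per 100 kb of the stretch whose positions fall nearest to the gene. On that scale the 30 tested members had a median of 4.62 summits per 100 kb and all 8595 tested genes 5.48. The densest members were Acvr2b, a type II receptor for activins, with 16.7 summits per 100 kb, the ligand gene Tgfb3 with 11.3, the inhibitory SMAD gene Smad7 with 10.7 and the metalloprotease gene Bmp1 with 10.2. The sparsest tested member was the ligand gene Bmp2, with 0.950 summits per 100 kb. In all, the members held 162, 163 and 194 summits in GNP preparations, 175, 181 and 191 in hyperplasia preparations and 168, 189 and 202 in tumor preparations, which overlap between stages.

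**Figure D1:**
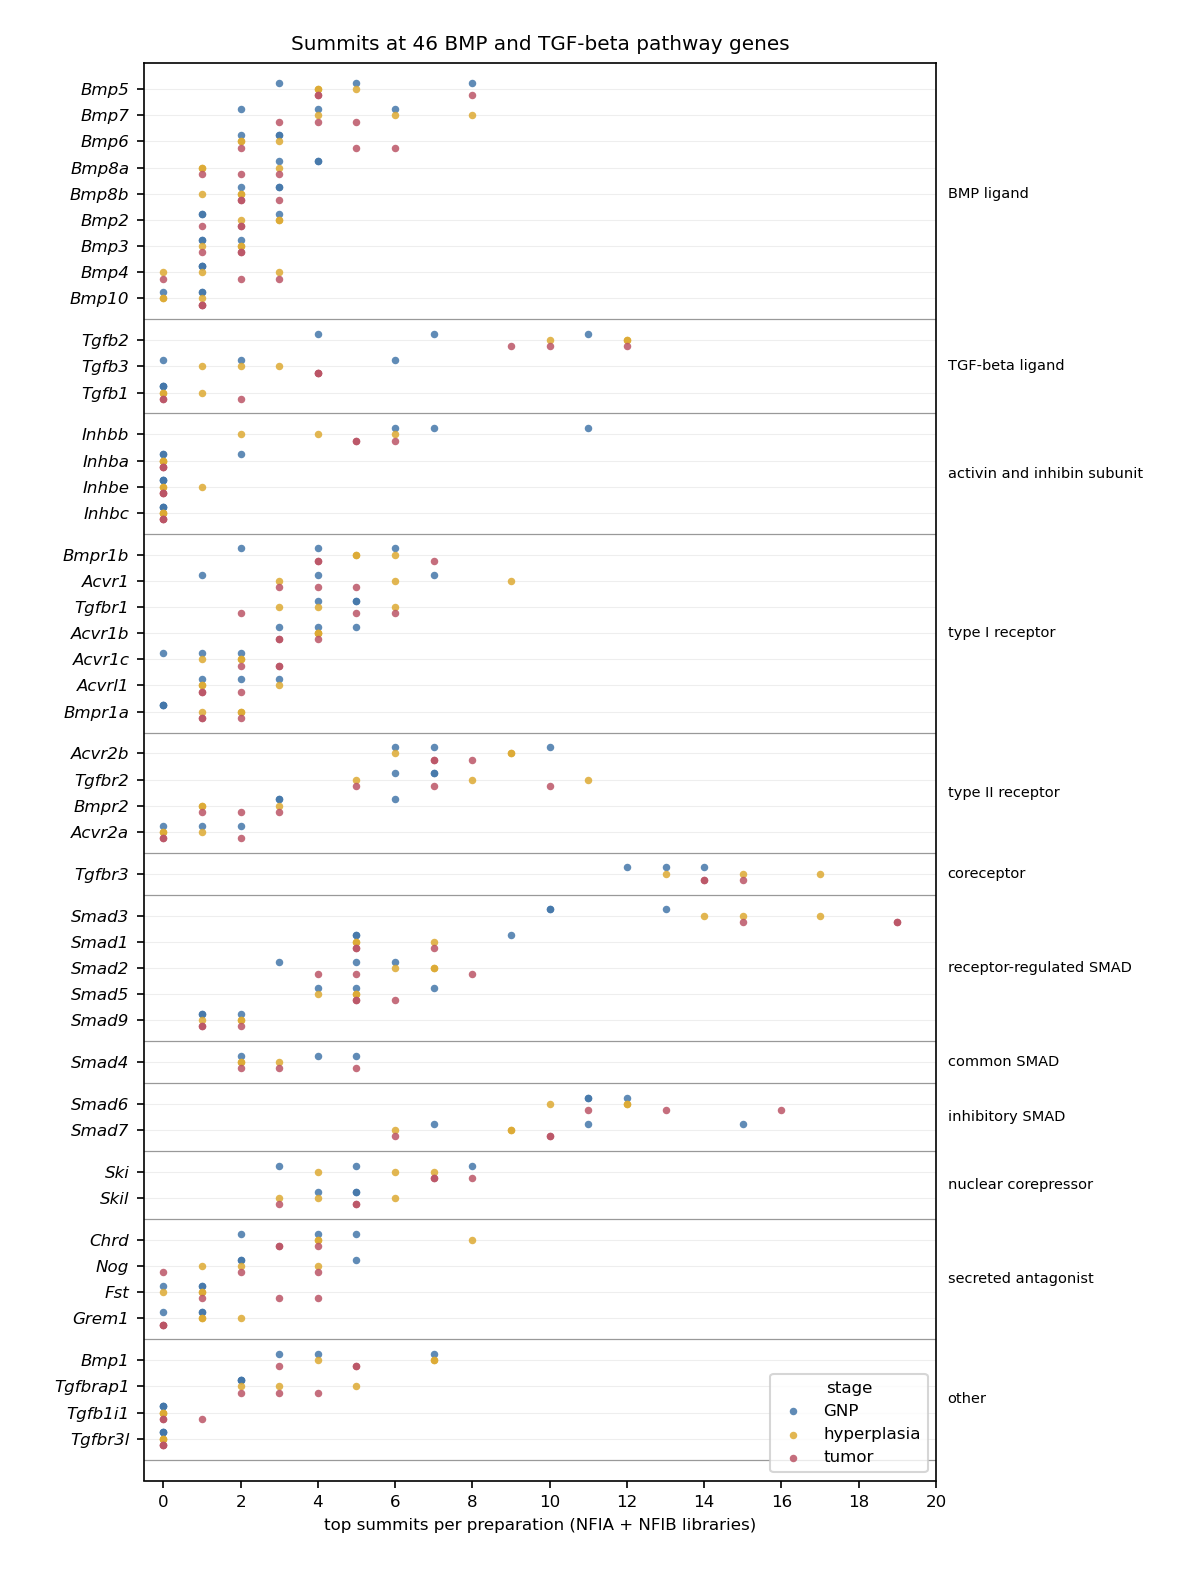
Number of top summits (x axis, NFIA and NFIB libraries added) at each of the 46 members (rows, grouped by role), 1 point per preparation and 3 per stage, with equal values drawn over each other. At Smad3 the 3 GNP points, 10 to 13, lie left of all hyperplasia and tumor points, 14 to 19, as they do among members under the limit for testing at Bmpr1a, where the GNP points are at 0.

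No member was called between stages. In limma's test over all 8595 tested genes with Benjamini-Hochberg adjustment at 0.05, hyperplasia against GNP called 10 genes (0.116%), tumor against GNP 16 (0.186%) and tumor against hyperplasia 9 (0.105%), and 0 of the 30 tested members in each. At an unadjusted p under 0.05 the members counted 4, 1 and 0 in these comparisons, against 1155, 1267 and 977 of all genes. The 4 were Smad3, Inhbb, Bmpr2 and Bmp8a, which are named because their p-values were seen, and the 1 was Smad3. The smallest adjusted p of a member was 0.225 for hyperplasia against GNP and 0.104 for tumor against GNP, both for Smad3, and 0.543 for tumor against hyperplasia, for Bmp6. The members split nearly evenly: 16 were higher and 14 lower in hyperplasia than in GNPs, 16 higher and 14 lower in tumors than in GNPs, and 14 higher and 15 lower in tumors than in hyperplasia, with 1 equal. Of all tested genes, 44.3%, 43.8% and 45.4% were higher in the same order. The members' median log2 fold changes were 0.05, 0.03 and −0.03 in that order, beside a median of 0 over all tested genes in each.

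The preparations of a stage lay wholly above those of another at few members. Smad3 was the 1 member of 30 (3.33%) higher in hyperplasia than in GNPs without overlap, where 5.29% of tested genes were, and the 1 member higher in tumors than in GNPs, where 6.25% were. Tgfb3 was the 1 member higher in tumors than in hyperplasia, where 4.33% of tested genes were. None of the 30 tested members was lower without overlap, where 5.83%, 5.84% and 3.64% of tested genes were lower in the comparisons of hyperplasia with GNP, of tumor with GNP and of tumor with hyperplasia. Among the members under the limit for testing, Bmpr1a was higher without overlap in both comparisons with GNP and Grem1 lower in tumor against hyperplasia, both on counts of 0 to 2. For genes under the limit the share without overlap was not computed, so that no result is read from these members. Within the 2 title dates that hyperplasia and GNP share, 17 of the 30 tested members had a difference of the same sign on both dates. A difference of 0 on a date, as at Bmp6, Bmp1, Chrd, Bmp8a and Smad1, did not count as the same sign. The share over all tested genes was not computed, so that no result about the members is read from this count. The members' median difference on the log2 scale was 0.04 on the first date (2 preparations a stage) and 0.06 on the second (1 preparation a stage).

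**Figure D2:**
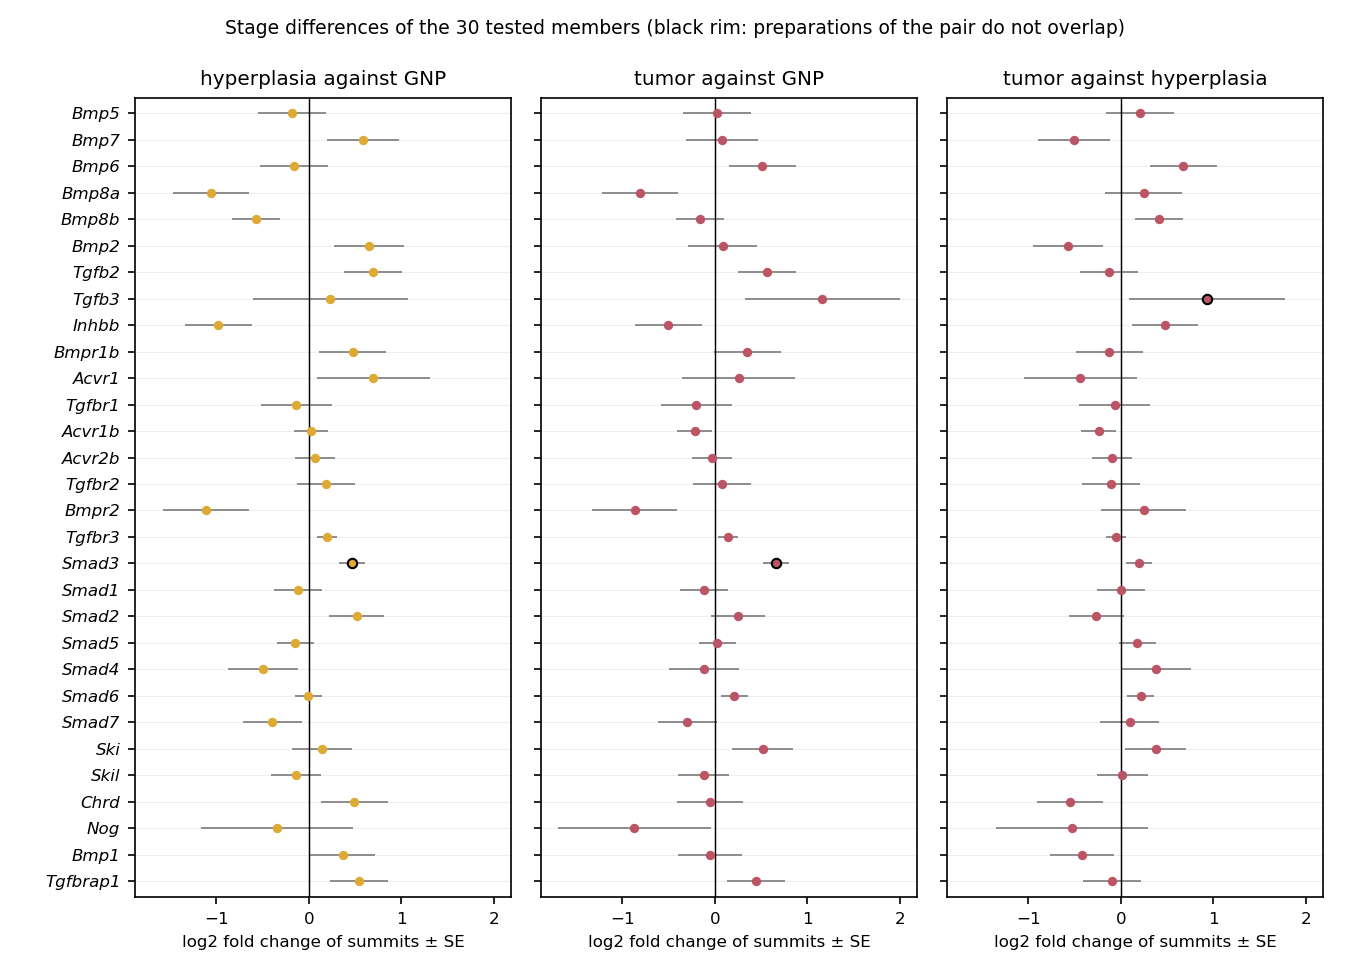
Log2 fold change of summits with its standard error from limma (x axis) for the 30 tested members (rows) in 3 comparisons of stages, n = 3 preparations a stage, where black rims mark members whose preparations do not overlap. Points lie on both sides of 0 in each panel, and only Smad3 (left and middle) and Tgfb3 (right) have a black rim.

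The BMP ligand genes overlapped between stages. Their 9 genes summed to 23, 24 and 22 summits in GNPs, 24, 24 and 18 in hyperplasia and 26, 24 and 22 in tumors. The 6 that were tested (Bmp5, Bmp7, Bmp6, Bmp8a, Bmp8b and Bmp2) had log2 fold changes from −1.06 to 0.65 in hyperplasia against GNP and from −0.81 to 0.52 in tumor against GNP, none of which passed. Bmp8a, which stood at the low end in both, had 1, 1 and 3 summits in hyperplasia and 3, 1 and 2 in tumors, against 4, 4 and 3 in GNPs. The stages meet at 3 summits, and the adjusted p was 0.333 and 0.416. Bmp3, Bmp4 and Bmp10 stayed under the limit for testing, with at most 3 summits in any preparation.

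The TGF-beta ligand genes differed in how many preparations they were seen in. Tgfb2, with an average of 5.02 summits per 100 kb, had 11, 4 and 7 summits in GNPs, 12, 12 and 10 in hyperplasia and 10, 12 and 9 in tumors. The first GNP preparation reached the level of the other stages and the other GNP preparations lay below them, and the log2 fold change was 0.69 ± 0.31 (SE) in hyperplasia against GNP (adjusted p = 0.388) and 0.56 ± 0.31 in tumor against GNP (adjusted p = 0.461). Tgfb3 had 4, 4 and 4 summits in tumors, against 2, 3 and 1 in hyperplasia, while GNP preparations had 6, 0 and 2. Tumors thus lay just above hyperplasia and inside the range of GNPs, and the difference from hyperplasia, a log2 fold change of 0.93 ± 0.84, did not pass (adjusted p = 0.723; 0.404 to 1.00 over the alternatives tried). It turned to −0.16 with NFIA libraries alone and to −0.60 when all listed summits were scaled to equal totals. It was 1.87 when the second hyperplasia NFIA library was left out. In stage fits of that kind the NFIB count of the preparation was doubled to stand in for the missing library. For Tgfb3 this NFIB count was 0, so that the preparation entered with 0 summits instead of 3. Tgfb1 had 0 summits in most preparations and at most 2 in any.

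Of the activin and inhibin subunit genes, only Inhbb was tested. It had 6, 2 and 4 summits in hyperplasia and 6, 5 and 5 in tumors, against 11, 6 and 7 in GNPs. The stages meet at 6 summits, and the log2 fold change was −0.98 ± 0.36 in hyperplasia against GNP (adjusted p = 0.303) and −0.50 ± 0.36 in tumor against GNP (adjusted p = 0.568). Inhba, Inhbe and Inhbc had at most 2 summits in any preparation.

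The type I receptor genes, whose products phosphorylate SMADs, summed to 24, 19 and 16 summits in GNPs, 25, 22 and 27 in hyperplasia and 28, 20 and 18 in tumors. The 4 tested genes, Bmpr1b, Acvr1, Tgfbr1 and Acvr1b, had log2 fold changes between −0.22 and 0.70 against GNP in either later stage and between −0.44 and −0.07 in tumor against hyperplasia. Bmpr1a, a BMP receptor gene, had 2, 2 and 1 summits in hyperplasia and 2, 1 and 1 in tumors, against 0, 0 and 0 in GNPs. With a mean of 1 summit it was under the limit for testing. It was named after its values were seen, so that the separation is a description of 9 small counts. Without the limit on low values its log2 fold change in hyperplasia against GNP was 2.08 (adjusted p = 0.0473 from limma), a fitted value that depends on the pseudocount. In that fit 91 of 15939 genes and 1 of 44 members passed. All GNP values of Bmpr1a were 0, so that this stage held no spread between preparations. Its full lists did hold summits in GNPs, as given with the promoters.

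Among the type II receptor genes, Acvr2b had 10, 7 and 6 summits in GNPs, 9, 6 and 9 in hyperplasia and 8, 7 and 7 in tumors. Tgfbr2, the TGF-beta type II receptor gene, had 7, 7 and 6 in GNPs, 5, 11 and 8 in hyperplasia and 10, 7 and 5 in tumors. Both overlapped fully between stages. Bmpr2, the BMP type II receptor gene, had 3, 1 and 1 summits in hyperplasia and 2, 1 and 3 in tumors, against 3, 3 and 6 in GNPs, which meet at 3 (log2 fold change −1.11 ± 0.46, adjusted p = 0.358, for hyperplasia against GNP). The coreceptor gene Tgfbr3 (betaglycan, which presents TGF-beta ligands to their receptors) averaged 5.34 summits per 100 kb and had 12, 13 and 14 summits in GNPs, 13, 15 and 17 in hyperplasia and 15, 14 and 14 in tumors. Its log2 fold changes were 0.19 ± 0.11 and 0.14 ± 0.11 against GNP (adjusted p = 0.503 and 0.608).

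Smad3, the receptor-regulated SMAD gene of the TGF-beta and activin branch, had the smallest p-values of the members against GNP. It averaged 6.98 summits per 100 kb. It had 15, 17 and 14 summits in hyperplasia and 15, 19 and 19 in tumors, against 10, 13 and 10 in GNPs. All 6 later preparations lay above all 3 GNP preparations, and tumors and hyperplasia overlapped. The log2 fold change was 0.47 ± 0.14 (SE, n = 3 each) in hyperplasia against GNP, with an unadjusted p of 0.0131 and an adjusted p of 0.225. In tumor against GNP it was 0.66 ± 0.14, with an unadjusted p of 0.0022 and an adjusted p of 0.104. Neither passed in limma's fit. On each of the shared title dates, with 2 and 1 preparations a stage, the hyperplasia difference was 0.47. Because all hyperplasia preparations lay above all GNP preparations, its sign on a date was fixed, so that this split is a description only. With the second hyperplasia NFIA library left out, and the NFIB count of its preparation doubled in its place, the hyperplasia difference was 0.38. The tumor difference passed with NFIB libraries alone (0.60, adjusted p = 0.0292) and not with NFIA libraries alone (0.70, adjusted p = 0.593); the alternatives tried spanned adjusted p-values of 0.196 to 0.797 for hyperplasia and 0.0292 to 0.593 for tumor. With the 15000 highest-scoring summits the differences were 1.20 and 1.36, and with all listed summits scaled to equal totals they turned to −0.19 and −0.46. The direction thus holds for the highest-ranked summits of each library and not for the whole lists.

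The other receptor-regulated SMAD genes overlapped between stages. Smad1, of the BMP branch, had 9, 5 and 5 summits in GNPs, 7, 5 and 5 in hyperplasia and 5, 5 and 7 in tumors. Smad2 and Smad5 had 3 to 8 and 4 to 7 summits in any preparation, and Smad9, under the limit for testing, 1 or 2. Their log2 fold changes against GNP lay between −0.15 and 0.52. Smad4, the common partner, had 2, 5 and 4 summits in GNPs, 2, 2 and 3 in hyperplasia and 2, 5 and 3 in tumors.

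The inhibitory SMAD genes held summits in every preparation. Smad6, which mainly limits BMP signals, had 12, 11 and 11 summits in GNPs, 12, 10 and 12 in hyperplasia and 16, 13 and 11 in tumors. Smad7, which limits both branches, had 7, 15 and 11 in GNPs, 9, 6 and 9 in hyperplasia and 6, 10 and 10 in tumors. Stages overlapped for both genes, with log2 fold changes of −0.40 ± 0.32 and −0.30 ± 0.32 for Smad7 in hyperplasia and in tumor against GNP (adjusted p = 0.659 and 0.702).

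The nuclear corepressor gene Ski had 8, 3 and 5 summits in GNPs, 7, 4 and 6 in hyperplasia and 8, 7 and 7 in tumors. Its relative Skil had 3 to 6 in any preparation, and both overlapped between stages. Of the secreted antagonist genes, Chrd had 2 to 8 and Nog 0 to 5 summits, with the spread between preparations of a stage as large as that between stages; Fst and Grem1 were under the limit for testing. Fst, which binds activins, had 1, 1 and 0 summits in GNPs, 1, 1 and 0 in hyperplasia and 4, 3 and 1 in tumors. Grem1, a BMP antagonist, had 1, 0 and 1 summits in GNPs, 1, 1 and 2 in hyperplasia and 0, 0 and 0 in tumors, so that tumors lay below hyperplasia and overlapped with GNPs. Of the members whose products are neither ligand, receptor nor SMAD, Bmp1, a protease that cleaves the antagonist chordin, had 3 to 7 summits and the receptor-associated Tgfbrap1 2 to 5.

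The same summits, widened by 100 bp on each side and merged where they touched, gave 42013 regions with 3 or more libraries. Of these, 145 lay nearest to 40 members. Among them, 67 (46.2%) were inside the gene, 25 (17.2%) within 1 kb of a gene end and 53 (36.6%) outside; the gene table gives no exons. At 11 members, 1 region each was hit in all 18 libraries, which is 11 of 145 regions (7.59%), against 14.6% of all regions. These constant regions lay within 1 kb of an end of Bmp1, Ski, Skil and Tgfbr1, inside Bmp7, Smad1, Smad3, Smad6 and Tgfbr3, and outside Bmp5 (9827 bp away) and Tgfb2 (71930 bp away). The region beside Ski, 614 bp from the gene at chr4:155223149-155223428, had a rank of 1807 or better in each library, and that inside Smad6, at chr9:63968668-63969152, 6885 or better (build mm10, as all coordinates here).

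Few member regions depended on the stage. A region counted as gained if at least 5 of the 6 libraries of the later stage and at most 1 of the 6 of the earlier held a top summit, and as lost in the opposite case. Hyperplasia against GNP had 4 gained and 2 lost member regions (2.76% and 1.38%, against 2.16% and 2.77% of all regions). Tumor against GNP had 4 gained and 3 lost (2.76% and 2.07%, against 2.27% and 2.51%), and tumor against hyperplasia 0 gained and 2 lost (0% and 1.38%, against 1.21% and 1.08%). These shares are near the background, and they come to 10 different regions at 8 genes. With the second hyperplasia NFIA library left out, the criterion asked for fewer hyperplasia libraries. Then 7 member regions were gained and 2 lost in hyperplasia against GNP, and 1 was gained and 6 were lost in tumor against hyperplasia. Over all regions the counts rose as well. They went from 908 to 1527 gained and from 1163 to 1310 lost in hyperplasia against GNP. In tumor against hyperplasia they went from 507 to 597 gained and from 452 to 922 lost. The member counts also moved when 1 preparation at a time was left out, where the criterion again asks for fewer libraries. They lay between 4 and 9 gained and 2 and 9 lost in hyperplasia against GNP, and between 4 and 8 gained and 3 and 8 lost in tumor against GNP. Over all regions they ran from 908 to 2222 gained and 1163 to 2211 lost in hyperplasia against GNP. In tumor against GNP they ran from 954 to 2227 gained and 1054 to 2138 lost.

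The ligand genes Tgfb2 and Tgfb3 and the signal carrier Smad3 each had a gained region. At Smad3, a region inside the gene at chr9:63701564-63701973, 56.2 kb downstream of the start site, held a top summit in 6 of 6 hyperplasia libraries and 5 of 6 tumor libraries, against 1 of 6 GNP libraries. At Tgfb2, a region inside the gene at chr1:186655070-186655582 did so in 5 hyperplasia and 5 tumor libraries, against 1 GNP library. On the first and the second shared title date, the Smad3 region was held by 4 of 4 and 2 of 2 hyperplasia libraries, against 1 of 4 and 0 of 2 GNP libraries, and the Tgfb2 region by 3 of 4 and 2 of 2, against 1 of 4 and 0 of 2. The criterion was set over these same libraries and leaves no room for the opposite direction on a date, so that the split by date, here and at the regions below, is a description only. At Tgfb3, a region inside the gene at chr12:86077703-86078153 was held by 6 tumor libraries, against 1 GNP library, with 3 in hyperplasia. All 4 of its GNP and hyperplasia libraries were NFIA libraries by title, whereas in tumors it had 3 of each target.

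Inside Tgfbr3 a pair of regions met the criterion in hyperplasia. The first, chr5:107144260-107144673, held a top summit in 5 hyperplasia libraries, against 1 GNP library, and in 2 tumor libraries. The second, chr5:107238000-107238299, did so in 5 hyperplasia libraries, against 0 GNP libraries, and in 1 tumor library, so that it also counted as lost in tumor against hyperplasia. A region between Smad6 and Smad3, chr9:63856172-63856730, was held by 5 tumor libraries, against 1 GNP library, with 2 in hyperplasia. It lies 96346 bp from Smad6 and 98.2 kb from Smad3, and was given to Smad6 as the nearer.

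**Figure D3:**
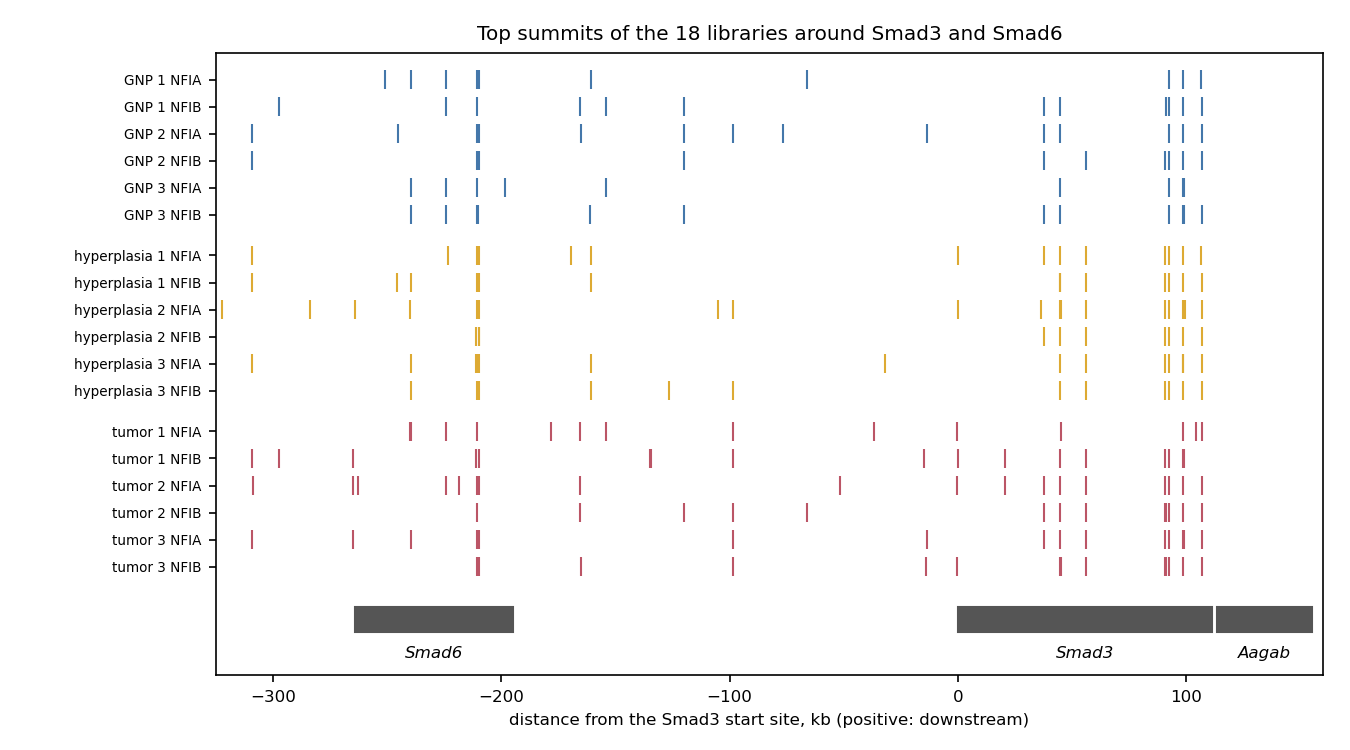
Each tick is a top summit of 1 of the 18 libraries (rows, by stage, preparation and target) by its distance from the Smad3 start site in kb (x axis), with gene spans as bars below. Columns of ticks in nearly all rows include that inside Smad6, and the column 56.2 kb inside Smad3 is present in 1 GNP row, 6 hyperplasia rows and 5 tumor rows.

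Losses were seen at Smad7, Acvr2b and Nog. Both Smad7 regions lay outside the gene, and the second, chr18:75410078-75410399, 14143 bp away, was held by 0 hyperplasia and 0 tumor libraries, against 5 GNP libraries. The first, chr18:75405618-75405929, was held by 1 tumor library, against 5 GNP libraries, with 3 in hyperplasia. A region inside Acvr2b, chr9:119420006-119420552, was held by 1 tumor library, against 5 hyperplasia libraries and 6 GNP libraries. A region 37630 bp from Nog, chr11:89340189-89340532, was held by 1 hyperplasia library, against 6 GNP libraries, with 2 in tumors. On the first and the second shared title date, the Nog region was held by 1 of 4 and 0 of 2 hyperplasia libraries, against 4 of 4 and 2 of 2 GNP libraries. The second Smad7 region was held by 0 of 4 and 0 of 2 hyperplasia libraries on these dates, against 3 of 4 and 2 of 2 GNP libraries. Inside Tgfbr3, the first region had 3 of 4 and 2 of 2 hyperplasia libraries, against 0 of 4 and 1 of 2 GNP libraries, and the second 3 of 4 and 2 of 2, against 0 of 4 and 0 of 2.

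The full lists hold more. Counting a summit of any rank, the Smad3 region was present in 6 hyperplasia and 5 tumor libraries, against 4 GNP libraries, and the Tgfb2 region in 6 and 6, against 5. By that count 0 of the 4 gained regions of either later stage stayed gained against GNP, and the gained regions were listed in 4 to 6 GNP libraries. By the same count 3 member regions were lost in hyperplasia against GNP (at Bmp2, Bmpr1b and Chrd) and 3 in tumor against GNP (at Bmp2, Inhbb and Smad7); that at Smad7 is the second Smad7 region, and the others had not met the criterion with top summits. The second Smad7 region was listed in 2 hyperplasia and 1 tumor libraries, against 5 GNP libraries. The Acvr2b region was listed in 5 tumor libraries, against 6 hyperplasia libraries and 6 GNP libraries. The lists were of unequal length and no test was made on them.

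**Figure D4:**
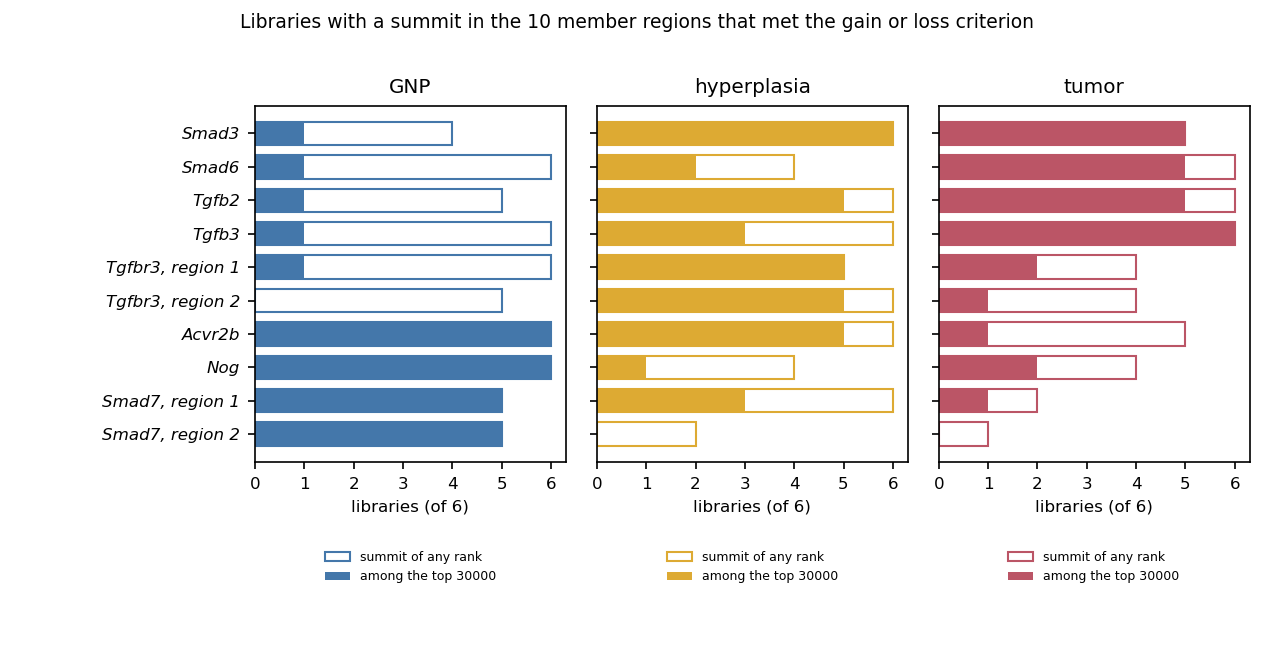
Libraries of 6 with a summit (x axis) in the 10 member regions that met the gain or loss criterion (rows), by stage, where filled bars count top summits and outlined bars summits of any rank. At Smad3 the filled bars are 1, 6 and 5 and the outlined bars 4, 6 and 5 in GNPs, hyperplasia and tumors, and at the second Smad7 region they are 5, 0 and 0 and 5, 2 and 1.

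Promoters were examined as 300-base windows from RefSeq (build GRCm38.p6), 250 bases before to 50 after the start site, of which the table held 39 for 32 of the 46 members. For all autosomal protein-coding genes it held 20063 windows, of 16437 genes. A top summit within 100 bp of the window was found in some library at 20 member windows (51.3%, against 49.3% of all windows), in at least 9 libraries at 5 (12.8%, against 26.9%) and in all 18 at 1 (2.56%, against 5.76%). That 1 was Tgfbr1, the TGF-beta type I receptor gene. These shares leave out 14 members without a window: Acvrl1, Bmp1, Bmp2, Bmp3, Bmp7, Fst, Nog, Skil, Smad2, Smad4, Smad7, Tgfb1i1, Tgfb3 and Tgfbr3. Of these, Bmp1 and Skil had a constant region within 1 kb of a gene end, and others, such as Nog and Acvrl1, had none. The windows of 6 genes are shown, in order of libraries with a top summit: Tgfbr1, Acvr2b, Tgfbrap1 and Smad1 as occupied at all stages, and Smad3 and Bmpr1a because no GNP library held a top summit there. Capitals mark TTGGC on either strand (GCCAA on the strand shown).
Tgfbr1: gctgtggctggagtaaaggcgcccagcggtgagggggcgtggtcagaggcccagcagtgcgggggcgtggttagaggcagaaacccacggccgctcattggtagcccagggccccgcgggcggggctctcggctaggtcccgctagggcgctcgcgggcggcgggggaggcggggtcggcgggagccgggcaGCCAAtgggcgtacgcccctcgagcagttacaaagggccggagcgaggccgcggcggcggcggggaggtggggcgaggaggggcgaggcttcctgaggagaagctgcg
Acvr2b: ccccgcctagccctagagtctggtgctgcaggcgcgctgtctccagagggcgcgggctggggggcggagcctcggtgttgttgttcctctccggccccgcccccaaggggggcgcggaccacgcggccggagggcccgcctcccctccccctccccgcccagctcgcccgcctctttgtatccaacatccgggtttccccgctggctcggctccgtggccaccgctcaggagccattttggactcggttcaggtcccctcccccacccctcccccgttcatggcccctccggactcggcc
Tgfbrap1: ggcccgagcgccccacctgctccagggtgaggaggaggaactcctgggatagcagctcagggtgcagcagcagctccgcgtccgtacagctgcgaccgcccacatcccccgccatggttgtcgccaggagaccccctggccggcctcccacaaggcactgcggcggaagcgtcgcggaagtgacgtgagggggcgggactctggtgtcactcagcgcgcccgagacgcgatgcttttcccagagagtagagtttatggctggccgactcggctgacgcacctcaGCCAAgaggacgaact
Smad1: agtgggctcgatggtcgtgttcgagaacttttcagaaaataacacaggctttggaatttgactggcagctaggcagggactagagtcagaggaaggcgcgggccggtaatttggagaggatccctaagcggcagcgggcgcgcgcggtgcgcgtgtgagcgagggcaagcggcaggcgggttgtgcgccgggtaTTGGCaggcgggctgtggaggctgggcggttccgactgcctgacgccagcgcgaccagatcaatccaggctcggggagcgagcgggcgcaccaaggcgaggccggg
Smad3: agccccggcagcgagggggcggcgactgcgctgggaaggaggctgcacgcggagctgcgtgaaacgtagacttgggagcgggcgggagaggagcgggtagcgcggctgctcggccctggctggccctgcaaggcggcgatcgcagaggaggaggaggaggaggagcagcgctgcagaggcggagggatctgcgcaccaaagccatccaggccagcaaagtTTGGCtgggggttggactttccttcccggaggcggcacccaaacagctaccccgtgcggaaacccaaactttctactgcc
Bmpr1a: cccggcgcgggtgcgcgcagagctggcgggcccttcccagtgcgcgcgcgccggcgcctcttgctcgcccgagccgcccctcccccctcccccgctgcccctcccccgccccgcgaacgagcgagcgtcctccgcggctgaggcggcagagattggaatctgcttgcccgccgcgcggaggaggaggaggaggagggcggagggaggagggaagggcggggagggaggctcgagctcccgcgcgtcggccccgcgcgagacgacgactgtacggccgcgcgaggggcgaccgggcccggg
These lie at chr4:47352972-47353271 (plus strand), chr9:119401928-119402227 (plus), chr1:43098579-43098878 (minus), chr8:79399379-79399678 (minus), chr9:63757945-63758244 (minus) and chr14:34502497-34502796 (minus), in the order printed.

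Tgfbr1 had a top summit in 6 of 6 libraries of each stage. Acvr2b had one in 6 GNP, 5 hyperplasia and 6 tumor libraries, Tgfbrap1 in 6, 6 and 5 and Smad1 in 4, 3 and 5. At Smad3 the window held a top summit in 2 hyperplasia and 4 tumor libraries, against 0 GNP libraries, and at Bmpr1a in 2 and 3, against 0. Summits of any rank were listed at Smad3 in 6 hyperplasia and 6 tumor libraries, against 5 GNP libraries, and at Bmpr1a in 4 and 4, against 3. Acvr1b, an activin type I receptor gene whose window is not shown, had a top summit in 5 GNP, 6 hyperplasia and 3 tumor libraries. Other windows not shown had as many libraries as Bmpr1a. Those of Acvr2a and Smad9 held a top summit in 3 GNP, 1 hyperplasia and 1 tumor libraries each, and 1 of Bmpr1b in 2, 0 and 3.

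The distance of top summits from the marked letters differed between windows. At Tgfbr1 the 22 top summits lay from 282 bases before to 96 after the start site, with a median distance of 84.5 bases from its single TTGGC. At Tgfbrap1 the median distance was 30.0 bases, at Smad3 90.0 and at Smad1 133.0. The windows of Acvr2b and Bmpr1a hold no TTGGC. The whole palindrome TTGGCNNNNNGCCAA (N any base, both strands) was in 0 of the 39 member windows and in 0.0349% of all windows. TTGGC on either strand was in 21 member windows (53.8%), against 48.0% of all windows, so that its presence is common at promoters.

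**Figure D5:**
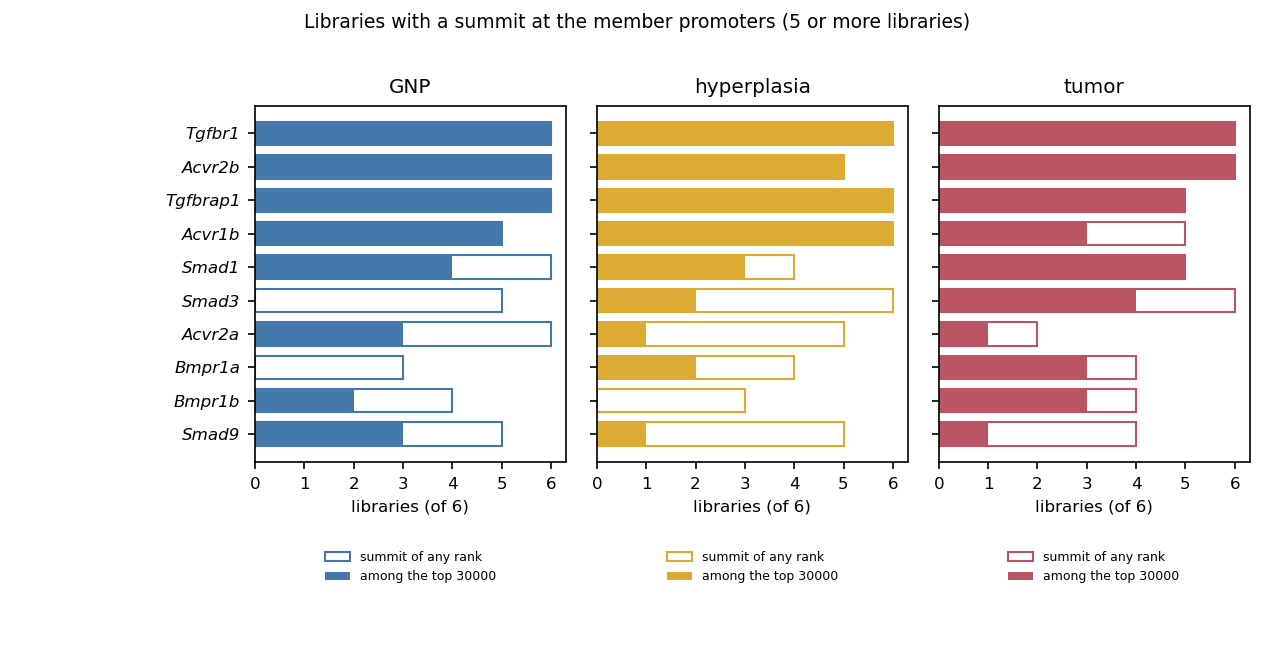
Libraries of 6 with a summit (x axis) at the member promoters hit by 5 or more libraries (rows), by stage, where filled bars count top summits and outlined bars summits of any rank. Tgfbr1 has 6 filled in each panel, and Smad3 has 0, 2 and 4 filled and 5, 6 and 6 outlined in GNPs, hyperplasia and tumors.

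No member passed between NFIA and NFIB. Over the 9 preparations, with the preparation as a block, 0 of 8595 genes (0%) passed limma's test with adjustment (537 at an unadjusted p under 0.05), and 0 of the 30 members did (3 unadjusted). The members' median log2 fold change of NFIA over NFIB was 0.07, beside −0.02 over all tested genes, and the smallest adjusted p of a member was 0.775. Smad3 had 66 summits over the 9 NFIA libraries and 66 over the 9 NFIB libraries, and Tgfb3 17 and 9. In 6 of the 18 libraries the deposited name carries the other target, and whether titles or names are right was not tested. In the 3 preparations whose names and titles carry the same targets, the second of each stage, 29 members were tested. Their median was 0.28, beside 0 over all tested genes, with 16 members higher and 9 lower in NFIA. In limma's test 0 members passed, and the smallest adjusted p of a member was 0.317. At an unadjusted p under 0.05 there were 5 members, against 629 of 8910 genes. These preparations include the second hyperplasia NFIA library, which stood apart. With the second hyperplasia preparation left out of the 9, the members' median was −0.005. Whether the stage differences depend on the target was asked with the interaction of stage and target, which passed for 0 genes (0%) in each of the 3 comparisons (354, 363 and 428 at an unadjusted p under 0.05, members 1, 2 and 3).

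No other gene of the pathway was called. Of 86 listed genes (ligands, receptors, extracellular and intracellular regulators and targets of the signal), 53 were tested. At adjusted p-values from limma, 0 passed in any of the 3 comparisons. At an unadjusted p under 0.05 there were 6, 7 and 5, against 1155, 1267 and 977 of all 8595 tested genes. The 53 tested genes split 18 higher and 30 lower in hyperplasia against GNP, 25 and 28 in tumor against GNP and 25 and 26 in tumor against hyperplasia. Over all 8595 tested genes, 44.3%, 43.8% and 45.4% were higher in the same order. The medians of the 53 genes were −0.03, −0.07 and 0 on the log2 scale. In hyperplasia against GNP the largest separated differences were at Tll1, a protease gene related to Bmp1, and Fbn2, which encodes a matrix protein that binds latent growth factors. Tll1 had 6, 6 and 6 summits in hyperplasia, against 3, 3 and 4 in GNPs (log2 fold change 0.77 ± 0.14, adjusted p = 0.0878), and passed when summits were assigned within 20 kb (adjusted p = 0.0225). Fbn2 had 5, 3 and 3 in hyperplasia, against 2, 2 and 2 in GNPs (0.70 ± 0.76, adjusted p = 0.754).

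In tumor against GNP they were at the BMP-family ligand gene Gdf6 and at Id1, a target gene of BMP signals. Gdf6 had 2, 4 and 0 summits in tumors, against 6, 6 and 5 in GNPs (−1.79 ± 0.71, adjusted p = 0.299). Id1 had 3, 4 and 3 in tumors, against 1, 1 and 2 in GNPs (1.10 ± 0.25, adjusted p = 0.113), which turned to −0.60 with all listed summits scaled. In tumor against hyperplasia, Fkbp1a, whose product binds type I receptors, had 2, 2 and 2 in tumors, against 3, 4 and 4 in hyperplasia (−0.73 ± 0.65, adjusted p = 0.721). Klf10, a TGF-beta target gene, had 9, 8 and 9 in tumors, against 7, 6 and 6 in hyperplasia (0.43 ± 0.12, adjusted p = 0.279), which turned to −0.08 with all listed summits scaled. Each of the genes named separated at its preparations and none passed in the main test. Of the 53 tested genes, 4 were higher and 1 lower without overlap in hyperplasia against GNP. In tumor against GNP these were 3 and 3, and in tumor against hyperplasia 1 and 4. Of all tested genes, 5.29% and 5.83%, 6.25% and 5.84%, and 4.33% and 3.64% were higher and lower in the same order.

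Markers of the cells that a preparation could hold were counted in the same way. The 11 granule progenitor marker genes, 10 of them tested, summed to 105 to 111 summits in GNPs, 85 to 101 in hyperplasia and 100 to 110 in tumors, so that hyperplasia lay below GNPs and met tumors at its upper end. Astrocyte and Bergmann glia markers (9 genes) summed to 35 to 47, 36 to 52 and 29 to 45, microglia and macrophage markers (6 genes) to 2 to 4, 3 to 8 and 3 to 7, and vascular and meningeal markers (8 genes) to 25 to 37, 26 to 32 and 34 to 36. Oligodendrocyte lineage markers (7 matched of 8) summed to 36 to 41, 30 to 43 and 36 to 37, and Purkinje cell and interneuron markers (8 genes) to 14 to 17, 12 to 15 and 12 to 13. Tumors thus also lay above hyperplasia at the vascular and meningeal markers, and below GNPs at the Purkinje cell and interneuron markers. S100b, Aif1 and Pcp2 had no top summit in any library. No marker gene passed in any comparison, these are binding sites and not expression, and their part in the differences at the members was not tested.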

How the data were processed

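Stage and target came from sample titles; numbers without one in the title only name a preparation. The authors' deposited lists hold 1-base summits per library with a −log10 score from their peak caller, and whether it is of a p-value or a q-value is not stated. Reads were processed with Bowtie2 and MACS2 on mm10, per the submitters' processing notes, whose roles and versions, like the use of a control library, are not stated. The lowest score in any list was 2.00, and depth is unknown, so that no counting interval was computed.

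The members, gene lists and tests were chosen with earlier results of these data known. The 30000 highest autosomal summits of each library (ties broken with seed 1) were given to the nearest protein-coding span of the RefSeq table (GRCm38.p6) within 100 kb, ties to the shorter span, and summed per preparation. Genes averaging at least 2 summits were tested with limma 3.58.1 (R 4.3.3, trend) on log2(summits + 0.5), 1 fit over 9 preparations with stage as the term and Benjamini-Hochberg adjustment at 0.05 over all 8595 genes; a fold change on this scale understates that of genes with few summits. NFIA and NFIB were compared per library, in genes averaging at least 1 summit per library, with preparation as a block. Regions are described in the text. Members given in every preparation were the 10 with the most summits and the tested ones whose preparations separated; members with a gained or lost region, and of other pathway genes the 2 largest separated differences a comparison, were named as well, and Bmp8a, Bmpr2, Bmpr1a, Smad4, Fst and Grem1 were added after their values were seen. The fits and the region count were tested on simulated data. Python 3.11.15, numpy 2.4.6, pandas 2.3.3 and matplotlib 3.10.9 were used.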

Additional observations from a re-analysis of the deposited data

How the results depend on the processing

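No member passed in the 3 comparisons of stages in 56 of the 59 alternative fits run, and the exceptions were Bmpr1a in hyperplasia against GNP with no filter on low values (1 member), and Bmp2 with all listed summits scaled to equal totals and Smad3 with NFIB libraries alone in tumor against GNP (1 member each). The number of genes called over the whole table is unstable. For hyperplasia against GNP (10 genes) it was 43 with the 15000 highest-scoring summits, 0 with all summits scaled, 1 with ties broken by another seed, 5 with a pseudocount of 2, 91 with no filter, 18 with NFIA and 54 with NFIB libraries alone, 0 without chromosome 6 and 3 with title date as a term. For tumor against GNP (16 genes) it was 46 with the 15000 highest, 361 scaled, 44 with a pseudocount of 2, 129 with no filter, 62 with NFIB libraries alone and 4 without chromosome 6. It was 40 when the second hyperplasia NFIA library was left out and the NFIB count of its preparation doubled in its place. For tumor against hyperplasia (9 genes) it was 0 scaled, 4 with another seed, 0 with a pseudocount of 2, 36 with no filter, 17 with NFIB libraries alone, 3 within 20 kb and 1 without chromosome 6. Leaving out 1 preparation at a time gave 0 to 13, 1 to 25 and 0 to 7 genes in these comparisons, lowest without GNP replicate 2 in those with GNP. The members' median log2 fold change was −0.23 scaled and 0.16 within 20 kb in tumor against GNP, and −0.19 scaled and 0.16 with NFIB libraries alone in tumor against hyperplasia. With 1 preparation left out it was −0.03 to 0.14, −0.05 to 0.13 and −0.0903 to 0.0803. In NFIA against NFIB it was 0.28 with the 3 preparations whose names and titles carry the same targets. The cause of these shifts was not tested.

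Member regions gained and lost fell to 1 each with the 15000 highest summits in every comparison that had any, and to 0 when all libraries of a stage and none of the other were asked for. When the second NFIA library of hyperplasia was left out, the criterion asked for fewer hyperplasia libraries, and 7 were gained against GNP. In tumor against hyperplasia 1 was gained and 6 were lost, and the counts over all regions rose as well. With summits of any rank in the same regions, an alternative chosen after seeing the data, 0 were gained and 3 lost in hyperplasia against GNP, 0 gained and 3 lost in tumor against GNP, and 0 gained and 4 lost in tumor against hyperplasia. Leaving out 1 preparation at a time, where the criterion asks for fewer libraries, gave 4 to 9 gained and 2 to 9 lost in hyperplasia against GNP, 4 to 8 and 3 to 8 in tumor against GNP, and 0 to 4 and 2 to 6 in tumor against hyperplasia. Reversed directions were −0.19 and −0.46 for Smad3 in hyperplasia and tumor against GNP, −0.60 for Id1 in tumor against GNP, and −0.60 for Tgfb3 and −0.0848 for Klf10 in tumor against hyperplasia, all with scaled summits, and −0.16 for Tgfb3 with NFIA libraries alone. Same-numbered GNP and hyperplasia preparations correlated at 0.0427, 0.0155 and 0.0677 in their deviations, each highest with its own number. All of these are small, and the second hyperplasia preparation had 0.0116 with the first GNP preparation. No pairing is drawn from them, and none is part of the design. With the replicate number as a block 0 genes were called in hyperplasia against GNP.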
